A study of Sus scrofa with 12 samples.

Results

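The 10 genes described here encode proteins of a single reaction, the licensing of DNA for replication, and were measured in the maturing pig oocyte. The set holds the 6 subunits of the MCM helicase (MCM2, MCM3, MCM4, MCM5, MCM6 and MCM7), the smallest subunit of the origin recognition complex (ORC6), the loading factors CDC6 and CDT1, and geminin (GMNN). Its members are a list of symbols, chosen with earlier results of these data known although no threshold on a value was applied, and each symbol matched a single Ensembl identifier, so that 10 of the 31908 identifiers listed were described. With a mean across libraries of 1 FPKM or more, 9 members entered the fit over all 7013 such genes, whereas CDT1 stayed under that level and was tested on its own. ORC6 and GMNN rose more than 2-fold between 0h and 46h, CDC6, MCM3 and MCM5 fell, MCM6 rose as well, and CDT1 was listed at 0 in 3 of the 4 libraries at 46h. The genes were grouped under the name of a licensing stockpile, but their levels did not follow a single course, and CDT1 and MCM5 were under 1 FPKM in every library at 46h.

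The oocytes came from antral follicles of ovaries of prepubertal gilts, were fully grown and were pooled. All groups were taken as cumulus-oocyte complexes, which were held in a maturation medium with porcine follicular fluid, EGF, PMSG and HCG for 0h, 22h or 46h and were then stripped of their cumulus cells, and no untreated or mutant arm was part of the design. Each time point had 4 replicates, 12 libraries in all, made with SMART-Seq2 and primed with oligo-dT. The design text gives 24h for the middle time point, and the sample labels give 22h, which is used here. The labels do not say whether replicates were separate collections, so p-values measure the spread between these samples only. FPKM, the unit of the deposited values, relates the fragments of a gene to the length of its transcript and to the fragments of the library, so levels of different genes are compared per length. Because FPKM is relative to the library and the cDNA starts at the poly(A) tail, the amount of an RNA per oocyte and the length of its tail cannot be told apart.

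Licensing marks each origin for use in a single S phase. The origin recognition complex binds DNA, CDC6 and CDT1 join it, and they load the ring-shaped MCM2 to MCM7 complex, which later becomes the core of the replicative helicase; geminin binds CDT1 and stops further loading. An oocyte completes both meiotic divisions with no S phase between them and transcribes little once fully grown, so it carries maternal mRNAs that serve the divisions and the first cell cycles of the embryo. Many such mRNAs are stored with short poly(A) tails and are extended in the cytoplasm through a U-rich element near the 3′ end.

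Library totals lay between 697468 and 782309 FPKM for 0h, 704433 and 773647 for 22h, and 779556 and 802184 for 46h, and read depth is unknown. Replicate 4 of 0h stood apart from the other 0h libraries, with correlations of log2(FPKM + 1) down to 0.934, and it was an extreme of the 0h group for all 10 members. It had the highest 0h value of MCM2, MCM4, MCM5, MCM7 and CDT1 and the lowest of ORC6, GMNN, CDC6, MCM3 and MCM6, so calls against 0h given here that change without it are given both ways. All 10 oocyte markers that matched were expressed, and they summed to 14167 to 23778 FPKM in the 0h libraries, 20118 to 28962 in those of 22h and 10228 to 13880 in those of 46h, where they were lowest. Among them GDF9, ZP3 and FIGLA, picked after their values were seen, had stage means of 984 ± 548, 2967 ± 1188 and 49.99 ± 13.1 FPKM at 0h. At 46h these were 37.8 ± 3.73, 95.5 ± 69.7 and 1.33 ± 0.344. ZP2 and NLRP5 were also lower in all 46h libraries than in those of 0h, and ZP4 and MOS had lower means at 46h with overlap. OOSP2 had a higher mean at 46h (6324 ± 3140 FPKM) than at 0h (4007 ± 1839), but its libraries overlapped. BMP15, at 3077 ± 1680 and 2329 ± 358 FPKM, and KIT, at 7.02 ± 4.94 and 6.495 ± 2.40, overlapped between 0h and 46h. The part of these marker changes in those of the members was not tested. Of 17 cumulus and granulosa markers, 15 stayed under 1 FPKM in every library and 5 of these were at 0 throughout. The exceptions were VCAN, at 58.3 ± 22.2, 65.0 ± 14.2 and 126 ± 14.4 FPKM (mean ± SD, n = 4) at 0h, 22h and 46h, and STAR, at 2.06 to 7.58 FPKM; a part of cumulus RNA in the changes given here was not tested. Of 4 proliferation markers of somatic cells, 2 matched: CCND2 stayed at 0.1 FPKM or less, and TYMS, which also makes thymidylate in other cells, was at 17.4 to 116, 24.1 to 160 and 139.97 to 279.75 FPKM at the 3 stages, lowest in replicate 4 of 0h, and its part was likewise not tested.

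The 3′ ends of the member mRNAs are shown first, since they can hold the element named above. Each is a stretch of 30 bases, in the sense of the mRNA and written as DNA, from RefSeq models on Sscrofa11.1, all of which matched by symbol. Capitals mark TTTTAT or TTTTAAT, letters of the cytoplasmic polyadenylation element, and AATAAA, the poly(A) signal, and the stretch was chosen to hold the former where it is present.
ORC6: ctaagttAATAAAtgttctTTTTATatgca
GMNN: aatactatgtatTTTTAATctatgatattt
MCM6: caattctctttgTTTTATtttgatttaaga
MCM2: tagtTTTTAATAAAatggagtaaaatctga
MCM3: tgaggttactgaAATAAAaagaagaaaaca
MCM5: agtcactgaagtAATAAAgccatgatgtgt
CDC6: tggattgtgaatatatttattttcaagttg
CDT1: tagaactgagataaagtcgttcaaagtcag
MCM7: attccttttgctAATAAAgtgtgtagattt
MCM4: attttcctcAATAAAtgatagAATAAAtaa
Within the last 100 bases of the mRNA, TTTTAT or TTTTAAT occurred in 4 of the 10 members, namely ORC6, GMNN, MCM6 and MCM2, against 17.3% of 17202 pig genes with a 3′ UTR of at least 100 bases and 23.0% of 5257 such genes in the fit. It starts 11 bases from the end in ORC6, 84 in GMNN, 56 in MCM6 and 27 in MCM2, and in MCM2 its letters overlap those of the poly(A) signal. In ORC6 the letters lie after the poly(A) signal, which starts 23 bases from the end, while in GMNN and MCM6 they lie before it. The 3 members that rose between 0h and 46h all carried it in this window and the 3 in the fit that fell did not. MCM3 and CDC6 hold it once further upstream in the 3′ UTR, and ORC6 and GMNN also hold it once in all. MCM2 carried it and did not pass between 0h and 46h (-0.08). The part of these letters in the changes was not tested. Over all genes in the fit, 16.8% rose and 39.1% fell between these stages, 55.9% in all. Among these genes in the fit, the letters were found in 31.1% of 900 that rose between 0h and 46h, in 16.6% of 1915 that fell and in 25.1% of 2442 others. AATAAA or ATTAAA was found in 8 of the 10 members, all but CDC6 and CDT1, against 70.1% of those 17202 genes. The motifs were chosen with the values of the members known and only the mRNA strand was read, so these matches describe letters and not sites in use.

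ORC6, a subunit of the origin recognition complex that takes part in MCM loading, had the highest mean of the 10 transcripts at each stage. Its gene lies at chr6:37934903-37943950 on the minus strand (ENSSSCG00000024443). The 0h libraries held 299.6, 291.97, 257.65 and 147.83 FPKM, those of 22h 289.64, 380.11, 287.93 and 321.9, and those of 46h 621.1, 509.35, 649.38 and 608.77. All 46h libraries lay above all others, whereas 0h and 22h overlapped. From 249 ± 70.04 FPKM (SD, n = 4) at 0h and 320 ± 43.1 at 22h the level rose to 597 ± 61.0 at 46h, which is 1.3 on the log2 scale against 0h (SE 0.213, adjusted p = 9.57e-05, limma) and 0.90 against 22h (adjusted p = 0.00304). Between 0h and 22h the difference was 0.40 (adjusted p = 0.165) and did not pass. Ranked by stage mean among all listed genes, ORC6 stood at 368 at 0h, 280 at 22h and 158 at 46h.

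CDC6, the ATPase that joins the origin complex to receive the helicase, went the opposite way. Its gene is at chr12:22101281-22118441 on the minus strand (ENSSSCG00000017471). Levels were 23.29, 23.99, 17.47 and 11.03 FPKM at 0h, 8.02, 8.78, 12.77 and 13.06 at 22h, and 4.49, 4.89, 5.06 and 5.05 at 46h. The 46h libraries were lowest and close to each other, and only replicate 4 of 0h fell among the 22h values. The mean went from 18.9 ± 6.03 to 10.7 ± 2.63 and 4.87 ± 0.267 FPKM, and the fall between 0h and 46h was -1.71 on the log2(FPKM + 1) scale (SE 0.229, adjusted p = 1.52e-05). Each step also passed, at -0.75 by 22h (adjusted p = 0.0236) and -0.96 from 22h to 46h (adjusted p = 0.00325). The step to 22h was lost with median-of-ratios scaling (-0.70, adjusted p = 0.0608), quantile normalization (-0.61), TPM less the mitochondrially encoded genes (-0.68), no filter on low values (adjusted p = 0.0542) and a fit of both stages alone (adjusted p = 0.0638), and also without replicate 1 or 2 of 0h (-0.63 and -0.62) or without replicate 1 or 2 of 22h (-0.63 and -0.67). The later step was lost with median-of-ratios scaling (-0.66) and quantile normalization (-0.46).

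CDT1, the partner of CDC6 in loading and the target of geminin, was the scarcest member at every stage. Its gene is at chr6:893377-897706 on the minus strand (ENSSSCG00000002651). At 0h the libraries gave 1.03, 0.7, 1.01 and 2.9 FPKM, at 22h 0.56, 0.13, 1.02 and 0.45, and at 46h 3 were listed at 0 and replicate 4 had 0.04. The 46h values lay under all others, and 0h and 22h overlapped. With a mean under 1 FPKM, the gene was left to an exact permutation test (two-sided, on log2(FPKM + 1)), whose smallest p for 4 against 4 libraries is 0.0286. That p was reached at 46h against 0h, with a difference of -1.18, and at 46h against 22h, with -0.58, while 22h against 0h gave -0.60 (exact p = 0.0857). The sizes are set by the added 1 FPKM, and with a pseudocount of 0.1 they were -3.60, -2.35 and -1.25 with the same exact p. No depth is known, so the values of 0 show only that CDT1 was not detected at 46h in 3 libraries.

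GMNN, the inhibitor, was the second most abundant member by its stage means. Its gene is at chr7:19585968-19595346 on the plus strand (ENSSSCG00000001095). It was listed at 197.02, 215.7, 192.68 and 148.38 FPKM at 0h, at 256.39, 327.83, 271.37 and 272.75 at 22h and at 489.88, 469.69, 475.66 and 494.21 at 46h. No library of any stage overlapped with those of another. The means were 188 ± 28.5, 282 ± 31.4 and 482 ± 11.6 FPKM (SD, n = 4), and GMNN rose at both steps, by 0.59 to 22h (SE 0.152, adjusted p = 0.00983) and by 0.78 from 22h to 46h (adjusted p = 0.000759). Between 0h and 46h the log2 fold change was 1.36 (adjusted p = 2.4e-06). The first step is near the fold threshold of 1.5 and did not pass it without replicate 4 of 0h (0.48), without replicate 2 of 22h (0.51) or with TPM (0.57). The geminin relatives GMNC and MCIDAS, which act in multiciliated cells, stayed under 1 FPKM in every library.

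**Figure D1:**
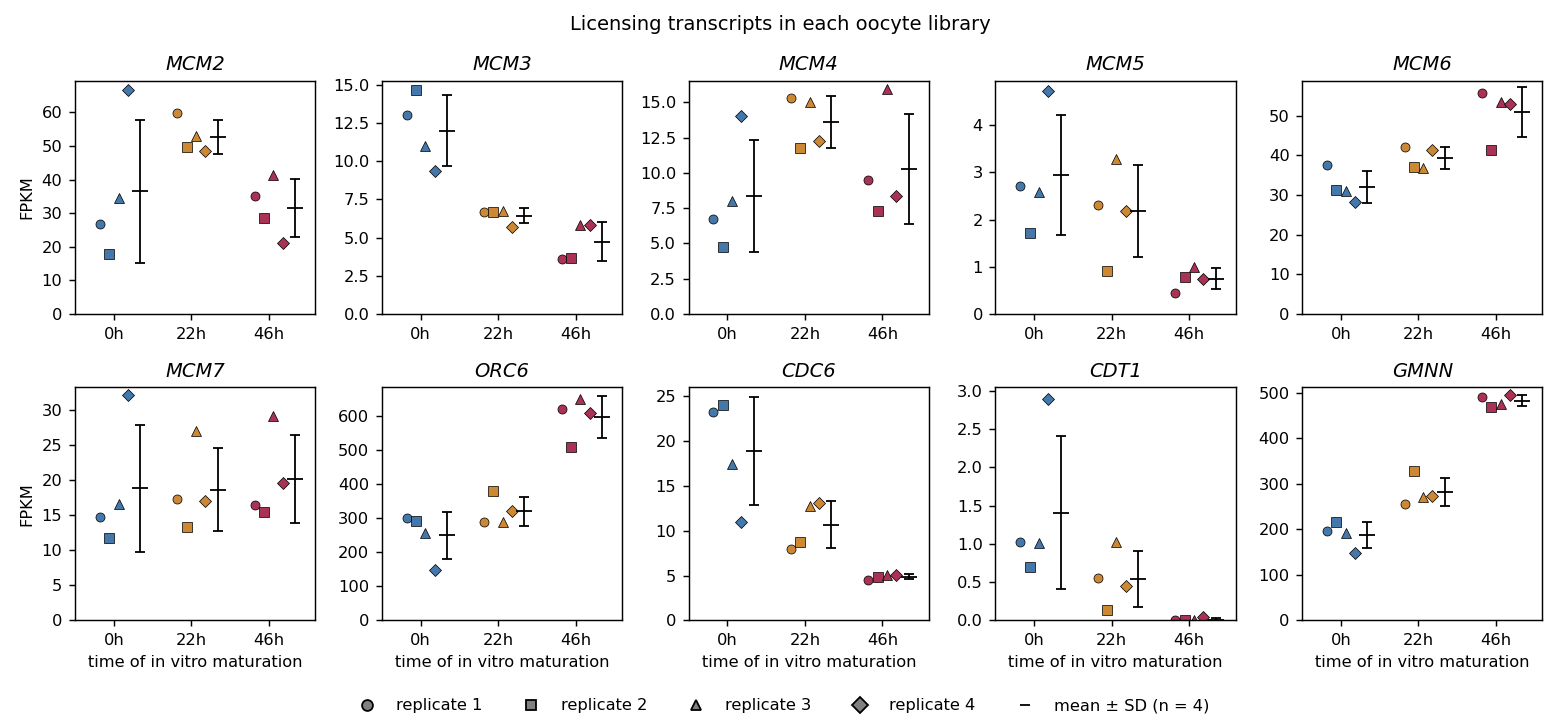
FPKM (vertical axis, linear, own range in each panel) of the 10 licensing transcripts in each of the 12 libraries by time of in vitro maturation, with the marker shape giving the replicate and the bars the mean ± SD of 4. ORC6 and GMNN reach 509.35 and 469.69 FPKM or more in every 46h library, CDC6 is at 5.06 or less there, and replicate 4 of 0h is an extreme of its group in every panel.

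The 6 MCM subunits, which assemble in equal numbers into a single ring, moved in different directions. MCM2 (chr13:72630378-72651270, minus strand, ENSSSCG00000011624) was at 26.67, 17.86, 34.53 and 66.74 FPKM at 0h, 59.68, 49.72, 52.93 and 48.36 at 22h and 35.09, 28.48, 41.39 and 21.06 at 46h. All 22h libraries exceeded all 46h libraries, and replicate 4 of 0h exceeded every other library. The log2 fold change was 0.68 at 22h against 0h (SE 0.314, adjusted p = 0.115), which did not pass, nor did -0.76 for 46h against 22h (adjusted p = 0.0597). Without replicate 4 of 0h they were 1.02 (adjusted p = 0.00554) and -0.76 (adjusted p = 0.0106), and both passed. The former also passed with median-of-ratios scaling (0.72, adjusted p = 0.0456). The latter also passed with TPM (-0.85), with TPM less the mitochondrially encoded genes (-0.76, adjusted p = 0.049), in a fit of both stages alone (adjusted p = 0.00784), and without replicate 2 of 0h (adjusted p = 0.029) or replicate 3 of 46h (-0.90), and it was -0.41 under median-of-ratios scaling and -0.34 under quantile normalization. Between 0h and 46h the value was -0.08 (adjusted p = 0.83), and with median-of-ratios scaling the sign turned, at 0.31.

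MCM4 (chr4:79674737-79686964, minus strand, ENSSSCG00000006273), part of the active helicase core with MCM6 and MCM7, resembled MCM2 in its course. Its values were 6.75, 4.77, 8.03 and 14.01 FPKM at 0h, 15.3, 11.76, 15.04 and 12.26 at 22h and 9.52, 7.29, 15.94 and 8.39 at 46h. All 3 stages overlapped, and replicate 4 of 0h and replicate 3 of 46h stood high in their groups. No comparison passed: 0.72 at 22h against 0h (SE 0.275, adjusted p = 0.0615), -0.42 at 46h against 22h (adjusted p = 0.226) and 0.30 at 46h against 0h (adjusted p = 0.361). The first passed without replicate 4 of 0h (0.97, adjusted p = 0.00659), without replicate 3 of 46h (0.72, adjusted p = 0.0425), and with median-of-ratios scaling (0.76), quantile normalization (0.86) and TPM less the mitochondrially encoded genes (0.82). Median-of-ratios scaling (0.67) and quantile normalization (0.93) also brought 46h against 0h past the thresholds. A long non-coding RNA gene overlaps MCM4, and strand use in the counting is not given in the sources used here.

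MCM6 (chr15:15923638-15978587, plus strand, ENSSSCG00000035564) was the subunit that rose. The libraries held 37.59, 31.14, 31.02 and 28.11 FPKM at 0h, 42.1, 36.95, 36.83 and 41.36 at 22h and 55.66, 41.47, 53.36 and 53.07 at 46h. The 46h values all lay above those of 0h, and replicate 2 of 46h fell among those of 22h. The log2 fold change was 0.65 at 46h against 0h (SE 0.151, adjusted p = 0.00169), with 0.30 to 22h (adjusted p = 0.151) and 0.36 from 22h to 46h (adjusted p = 0.0642). The change between 0h and 46h was 0.55 with TPM, under the fold threshold, but median-of-ratios scaling gave 1.05 and quantile normalization 1.14.

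MCM3 (chr7:46084648-46104425, minus strand, ENSSSCG00000025488) fell early. It was at 13.02, 14.7, 10.99 and 9.34 FPKM at 0h, 6.71, 6.65, 6.72 and 5.72 at 22h and 3.61, 3.64, 5.84 and 5.85 at 46h. The 0h libraries lay above all others, while 22h and 46h overlapped. The change was -0.79 by 22h (SE 0.186, adjusted p = 0.00553) and -1.19 by 46h against 0h (adjusted p = 6.21e-05), and 46h against 22h gave -0.40 (adjusted p = 0.0883). With quantile normalization the change between 0h and 46h was -0.52 and did not pass the fold threshold.

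MCM5, the partner of MCM2 at the gate of the ring, was the scarcest subunit in all 12 libraries, and its gene lies on an unplaced scaffold (ENSSSCG00000022823). At 0h it had 2.72, 1.72, 2.58 and 4.72 FPKM, at 22h 2.31, 0.92, 3.29 and 2.19, and at 46h 0.45, 0.79, 0.99 and 0.75. The 46h libraries lay under all 0h libraries, and replicate 2 of 22h fell among those of 46h. It fell by 0.82 on the log2 scale from 22h to 46h (SE 0.253, adjusted p = 0.0157) and by 1.13 from 0h to 46h (adjusted p = 0.00134), with -0.31 at 22h against 0h (adjusted p = 0.369). With a pseudocount of 0.1 in place of 1 these falls were -1.35 and -1.80, since the added 1 FPKM is of the size of the level itself. Quantile normalization left -0.29 and -0.43, both short of the thresholds, and the later step was also lost with no filter on low values (adjusted p = 0.0534) and without replicate 3 of 22h (-0.65, adjusted p = 0.0543).

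MCM7 (chr3:8005890-8014047, minus strand, ENSSSCG00000032180) passed in no comparison. Its libraries ran over 14.76, 11.78, 16.64 and 32.09 FPKM at 0h, 17.3, 13.3, 27.02 and 17.0 at 22h and 16.38, 15.42, 29.2 and 19.55 at 46h. The stages overlapped, and 1 library stood high in each. Log2 fold changes were 0.04, 0.11 and 0.15 at 22h against 0h, 46h against 22h and 46h against 0h (SE 0.294, adjusted p = 0.927, 0.788 and 0.683). AP4M1 overlaps the gene on the other strand, so reads of the pair may not be told apart.

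**Figure D2:**
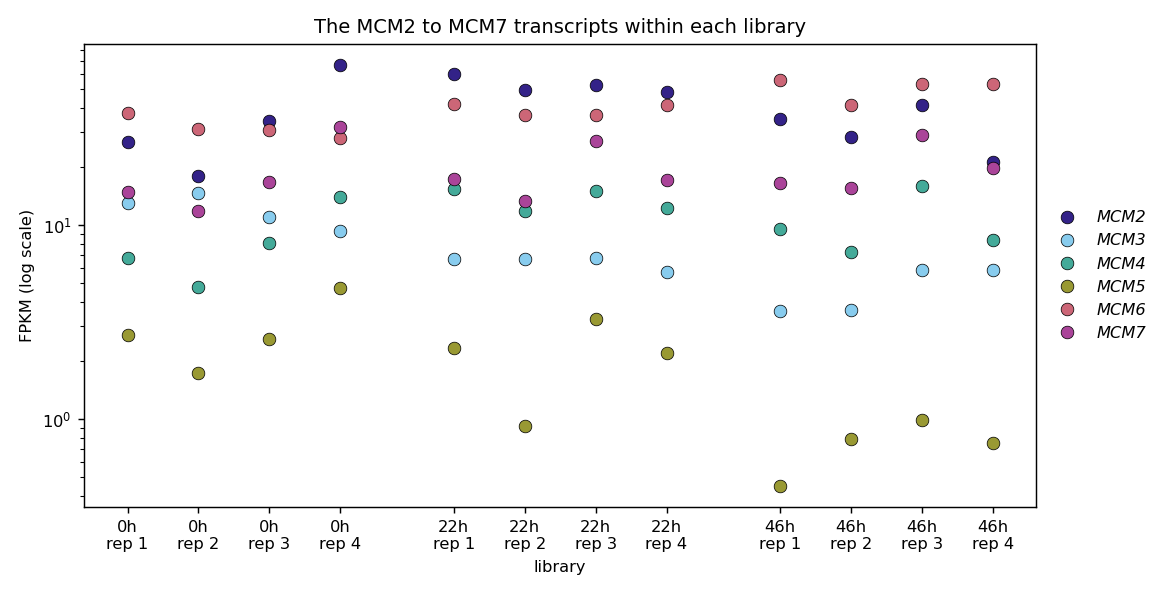
FPKM (log scale) of MCM2 to MCM7 in each library, 1 point a gene and library. MCM5 is the lowest in all 12 libraries, MCM2 is the highest in the 22h libraries, and MCM6 is the highest in the 46h libraries.

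Within a library the scaling cancels in a ratio of genes. The most abundant MCM transcript exceeded the least abundant by 13.4 to 18.1 times at 0h, by 16.1 to 54.0 times at 22h and by 52.5 to 124 times at 46h, so that neighbouring stages overlapped and 0h and 46h did not. The least abundant was MCM5 in each case, so these ratios follow MCM5. MCM6 led in replicates 1 and 2 of 0h and in all 46h libraries, and MCM2 led in the remaining 0h libraries and at 22h. MCM2 and MCM6 together made up 59.8% to 63.3% of the MCM sum in the 0h libraries, 63.3% to 72.6% in those of 22h and 64.6% to 75.2% in those of 46h. That sum itself overlapped between stages, at 82.0 to 155, 119 to 143 and 97.1 to 147 FPKM. The ratio of MCM6 to MCM3 did not overlap between stages, at 2.12 to 3.01, 5.48 to 7.23 and 9.07 to 15.4, whereas that of MCM2 to MCM4 did, at 3.74 to 4.76, 3.52 to 4.23 and 2.51 to 3.91.

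The inhibitor GMNN, which rose, and the loader CDC6, which fell, separated further. GMNN exceeded CDC6 by 8.46 to 13.5 times at 0h, 20.9 to 37.3 times at 22h and 94.0 to 109 times at 46h, with no overlap between stages. Over CDT1 it stood 51.2 to 308 times higher at 0h and 266 to 2522 times higher at 22h, which overlapped. No ratio to CDT1 is given at 46h, where CDT1 was at 0 or 0.04 FPKM. GMNN and ORC6 kept near to each other, with ratios of GMNN to ORC6 of 0.658 to 1.004, 0.847 to 0.942 and 0.732 to 0.922.

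**Figure D3:**
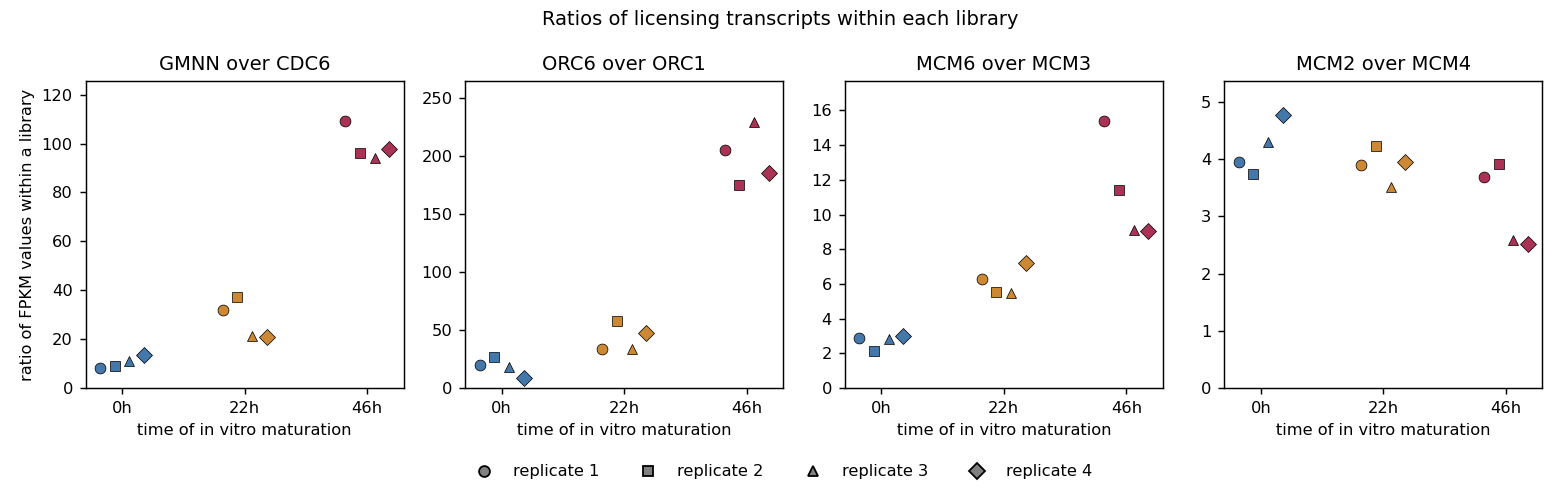
Ratios of FPKM values within each library (vertical axis from 0) by time of in vitro maturation, with the marker shape giving the replicate. GMNN over CDC6, ORC6 over ORC1 and MCM6 over MCM3 separate the 3 stages without overlap, and MCM2 over MCM4 does not. Each of the former sets a gene that rose over a gene that fell in these data, so the separation is no further test.

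By stage mean, the order at 0h was ORC6, GMNN, MCM2, MCM6, CDC6, MCM7, MCM3, MCM4, MCM5 and CDT1. Neighbours in that order overlapped in their libraries except at GMNN to MCM2, MCM6 to CDC6 and MCM4 to MCM5. At 22h MCM4 had moved above CDC6 and MCM3, and the order ran ORC6, GMNN, MCM2, MCM6, MCM7, MCM4, CDC6, MCM3, MCM5 and CDT1. There ORC6 and GMNN, MCM7 and MCM4, MCM4 and CDC6, and MCM5 and CDT1 overlapped. At 46h MCM6 stood above MCM2 and was followed by MCM7, MCM4, CDC6, MCM3, MCM5 and CDT1. Overlap remained there between MCM2 and MCM7, MCM7 and MCM4, and CDC6 and MCM3 only.

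Counted over the 9 members in the fit, 3 passed an adjusted p of 0.05 and a fold of 1.5 at 22h against 0h (GMNN higher, MCM3 and CDC6 lower), where 26.7% of all genes tested passed. Between 22h and 46h 4 passed (ORC6 and GMNN higher, CDC6 and MCM5 lower), against a background of 42.4% (9.87% higher and 32.6% lower). At 46h against 0h 6 passed (ORC6, GMNN and MCM6 higher, CDC6, MCM3 and MCM5 lower), against 55.9%. By direction, 3 of 9 were higher at 46h against 0h where 16.8% of genes were, and 3 of 9 were lower where 39.1% were. The share of members that passed was thus near that of all genes, and the comparisons share libraries and are not independent. The median log2 fold change of the members was 0.30, -0.40 and 0.15 in the 3 comparisons, beside 0, -0.26 and -0.25 over all genes. Without replicate 4 of 0h, 4, 5 and 6 members passed, beside 31%, 44.4% and 56.5% of all genes. Without replicate 2 of 22h only 1 passed at 22h against 0h, beside 22% of all genes.
Median-of-ratios scaling brought the median of all genes to 0.06 at 46h against 0h and quantile normalization to 0.37. ORC6, GMNN and CDC6 passed between 0h and 46h in the same direction under both, as did MCM6. The share of higher genes among all that passed moved from 1179 of 3922 to 2055 of 4373 and 2877 of 4666 under these scalings.

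**Figure D4:**
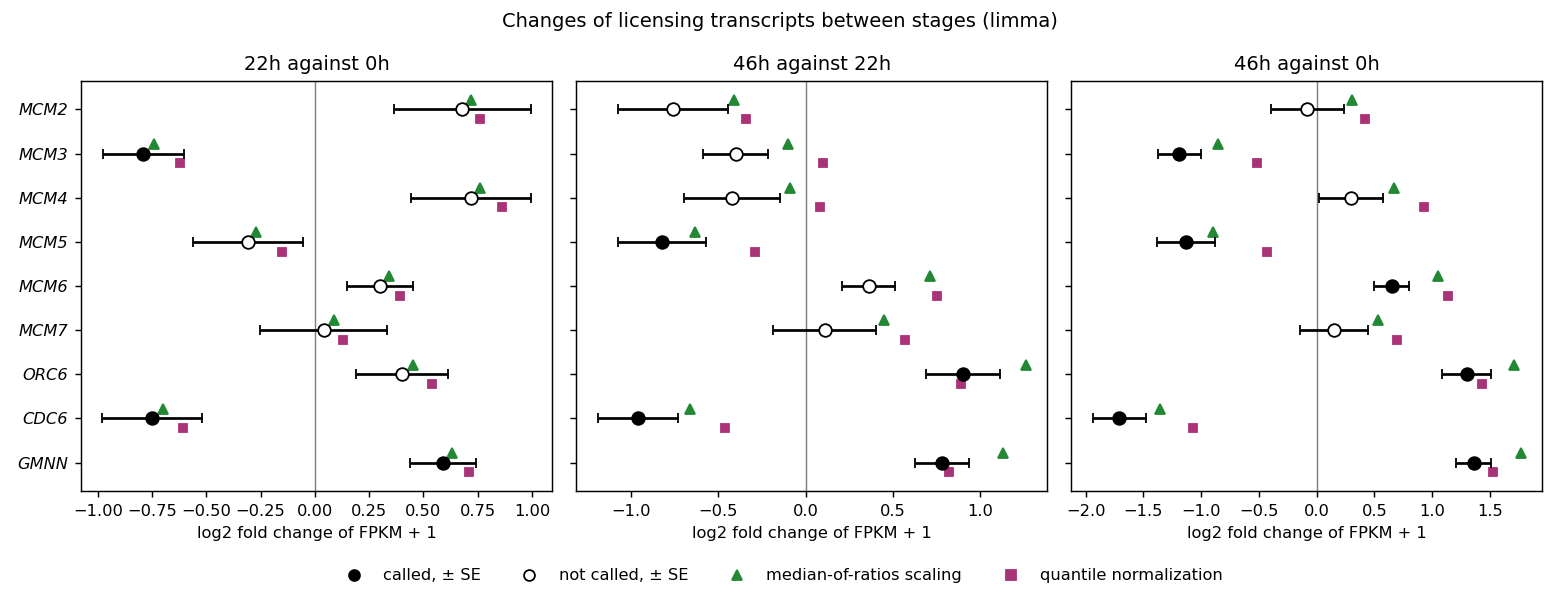
Log2 fold change of FPKM + 1 for the 9 members in the fit in each comparison, as a circle with its SE (filled where the thresholds were passed), with the values under median-of-ratios scaling (triangle) and quantile normalization (square). Both scalings shift members towards higher values at 46h against 0h, where CDC6 goes from -1.71 to -1.36 and -1.07 and GMNN from 1.36 to 1.77 and 1.53.

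The other origin recognition subunits were measured for the same libraries, and ORC6 and ORC5 parted from the rest. ORC5 rose from 217 ± 91.4 FPKM at 0h and 254 ± 55.2 at 22h to 414 ± 28.1 at 46h (log2 fold change 1.04 against 0h, adjusted p = 0.00485). ORC1, the ATPase subunit, fell from 14.2 ± 2.51 FPKM to 7.63 ± 1.083 and 3.01 ± 0.196 (-1.91, adjusted p = 1.12e-07), and ORC4 from 11.5 ± 2.91 to 5.99 ± 0.820 and 2.10 ± 0.336 (-1.98, adjusted p = 2.99e-07). ORC2, at 13.6 ± 0.523 and 10.4 ± 1.59 FPKM at 0h and 46h (-0.37), and ORC3, at 28.4 ± 6.47 and 19.2 ± 3.10 (-0.53), were short of the fold threshold between these stages. ORC3 fell by 0.65 to 22h (adjusted p = 0.015). That call was lost with median-of-ratios scaling (-0.61), with quantile normalization (-0.55) and with 1 of the libraries left out (-0.54). Without replicate 4 of 0h (-0.68) and with TPM (-0.64) ORC3 passed between 0h and 46h, and under quantile normalization ORC2 and ORC3 turned to 0.27 and 0.03. ORC6 exceeded ORC1 by 8.67 to 26.5 times at 0h, 33.6 to 57.8 times at 22h and 175 to 229 times at 46h, and ORC4 by 16.4 to 28.9, 42.7 to 59.6 and 230 to 382 times. The ratio of ORC5 to ORC6 overlapped between stages, from 0.595 to 1.05 in all.

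**Figure D5:**
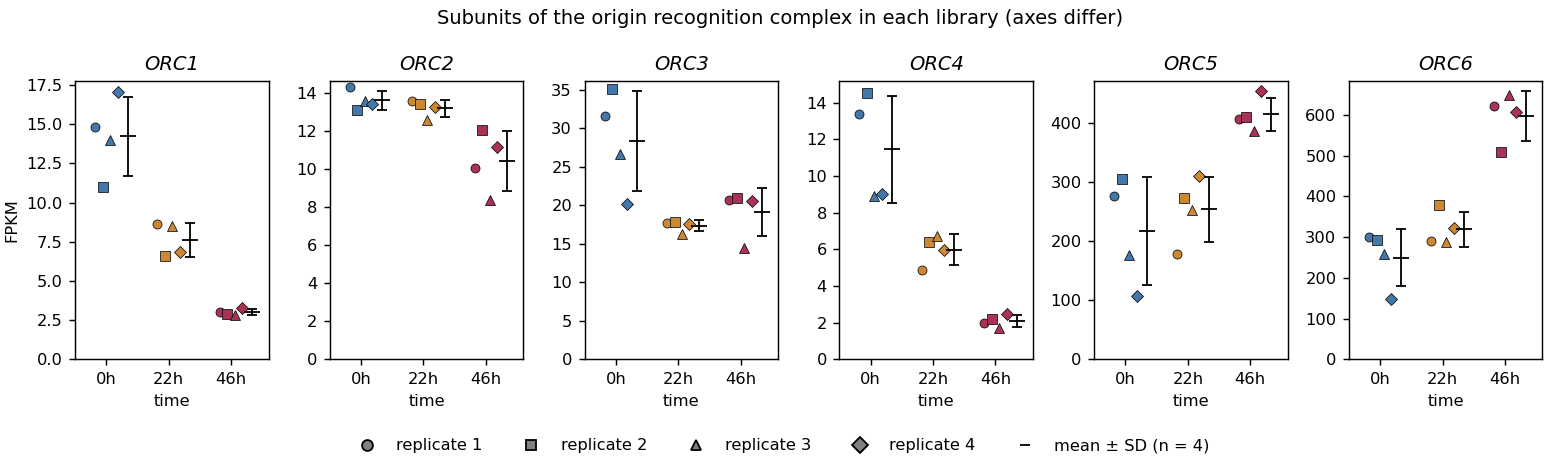
FPKM (vertical axis from 0, own range in each panel) of ORC1 to ORC6 in each library, with the mean ± SD of 4. ORC1 and ORC4 fall at each step, ORC5 and ORC6 are highest at 46h, and ORC2 and ORC3 did not pass the thresholds between 0h and 46h.

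Of 13 other licensing factors, 12 were tested, and 2 rose and 4 fell between 0h and 46h (median -0.34), where 16.8% of all genes tested rose and 39.1% fell. The split was 3 and 3 with median-of-ratios scaling (median 0.03), beside 29.3% and 33.1% of all genes. It was 4 and 3 with quantile normalization (0.24), beside 41% and 25.5%, and 2 and 5 without replicate 4 of 0h, beside 18.4% and 38.1%. Beside the ORC genes, these were MCMBP, a binding protein of the MCM subunits, which went from 30.1 ± 4.88 to 73.2 ± 14.6 FPKM (1.25, adjusted p = 3.41e-05) and had risen by 1.13 at 22h, and MCM8 and MCM10. MCM8, a helicase of recombination, was at 5.69 ± 1.51, 6.83 ± 1.58 and 1.17 ± 0.169 FPKM at the 3 stages. It fell by 1.60 between 0h and 46h (adjusted p = 5.27e-06, and -0.93 with quantile normalization). MCM10, which acts when the helicase is switched on, fell from 45.5 ± 2.97 to 28.0 ± 7.84 FPKM (-0.72, adjusted p = 0.00445). That call was lost with median-of-ratios scaling (-0.33), with quantile normalization (-0.17) and with 1 of the libraries left out (-0.55). MCM9 was at 2.19 ± 0.539 and 3.38 ± 0.622 FPKM (0.47, adjusted p = 0.0407), under the fold threshold, which it passed with median-of-ratios scaling (0.76).

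Among 17 tested genes of origin firing, 3 were higher and 6 lower at 46h against 0h (median 0.19), beside 16.8% and 39.1% of all genes. The counts were 8 higher and 5 lower with median-of-ratios scaling (median 0.46), where 29.3% and 33.1% of all genes were (median 0.06). They were 10 and 4 with quantile normalization (0.75), where 41% and 25.5% of all genes were (0.37). Without replicate 4 of 0h they were 5 and 6, beside 18.4% and 38.1% of all genes. CDK2, the S phase kinase, was at 11.4 ± 4.15, 21.8 ± 2.43 and 0.815 ± 0.22 FPKM at the 3 stages, a rise of 0.93 to 22h (adjusted p = 0.00442) and a fall of 3.65 thereafter (adjusted p = 5.59e-09). CCNE1, its cyclin partner, rose from 3.57 ± 1.33 to 7.78 ± 0.786 FPKM (0.98, adjusted p = 0.000386, and 1.66 with quantile normalization). CCNE2, the other cyclin E, outside the rule for named genes, fell from 1.73 ± 0.573 to 0.195 ± 0.11 FPKM (-1.17, adjusted p = 8.04e-05), a call lost with quantile normalization (-0.39). TIPIN fell by 1.54 and GINS1 fell by 1.68 between 0h and 46h, while MTBP and GINS4 rose by 0.76 and 0.65, and GINS4 did so with a range of 0.44 to 0.76 and 3 calls lost as libraries were left out. With quantile normalization MTBP and GINS4 were at 1.42 and 1.32 and GINS1 at -0.91, and with median-of-ratios scaling at 1.05, 0.98 and -1.52.

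In the list of genes that set the levels of CDT1, geminin and CDC6, 8 were tested, with 1 higher and 2 lower at 46h against 0h (median -0.05), beside 16.8% and 39.1% of all genes. With median-of-ratios scaling it was 3 and 2 (median 0.33), beside 29.3% and 33.1% of all genes. With quantile normalization it was 4 and 1 (0.50), beside 41% and 25.5%, and without replicate 4 of 0h 1 and 1, beside 18.4% and 38.1%. SKP2, which marks CDT1 for breakdown, rose from 7.32 ± 1.76 to 18.5 ± 3.20 FPKM (1.24, adjusted p = 0.000202). SKP1, a part of the same ligase, fell from 910.1 ± 198 to 342 ± 19.9 FPKM (-1.38, adjusted p = 8.85e-06). CUL4A fell by 0.80 from a level of 1.89 ± 1.15 FPKM, a call lost without replicate 4 of 0h (-0.56) and with quantile normalization (-0.07).

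Among fork enzymes, 4 of 20 tested genes were higher and 9 lower at 46h against 0h (median -0.50), shares near the 16.8% and 39.1% of all genes. These counts were 6 and 8 with median-of-ratios scaling (median -0.21), beside 29.3% and 33.1% of all genes. They were 7 and 8 with quantile normalization (0.14), beside 41% and 25.5%, and 5 and 10 without replicate 4 of 0h, beside 18.4% and 38.1%. Within the clamp loader, RFC3 fell from 597 ± 230 to 4.79 ± 1.37 FPKM (-6.62, adjusted p = 7.6e-10) and RFC2 from 380 ± 14.8 to 33.7 ± 2.32 (-3.46, adjusted p = 5.96e-09). RFC4 rose from 139 ± 46.5 to 417 ± 33.8 FPKM (1.65, adjusted p = 0.000207) and RFC1 from 21.4 ± 1.19 to 48.6 ± 6.78 (1.14, adjusted p = 1.29e-05). The remaining subunit, RFC5, named after its values were seen, fell from 4.70 ± 0.365 to 0.378 ± 0.294 FPKM (-2.07, adjusted p = 6.41e-07; -1.35 with quantile normalization). POLE3, a small subunit of DNA polymerase epsilon, fell by 4.95 and RPA3, of the single-strand binding complex, rose by 1.44.

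Across the 12 libraries, which share stages and scaling, log2(FPKM + 1) of GMNN followed that of ORC6 with a Pearson r of 0.96, MCM6 followed ORC6 at 0.90, CDC6 followed MCM3 at 0.89 and MCM4 followed MCM2 at 0.89. MCM5 ran against ORC6, at -0.92. Of 6111 named genes, the one most like GMNN was PPP6C (r = 0.99), and 71 genes had an r over 0.95. CDC6 was closest to ATP6V0A1 (r = 0.99) and ORC6 to CETN2 (r = 0.982). For the MCM genes the closest were MLLT1 to MCM2 (0.979), BLMH to MCM5 (0.971), UXS1 to MCM4 (0.968), IAH1 to MCM3 (0.956), TCTN2 to MCM6 (0.952) and PHACTR3 to MCM7 (0.919).

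In the 300 bases around the start of each RefSeq mRNA, from 250 before to 50 after, the letters TTTNNCGC, part of the E2F motif, were sought on both strands. They were found in MCM3, MCM6 and CDT1, that is in 3 of 10 members, against 6.82% of 20664 genes, and at least 2 times in MCM6 and CDT1, against 0.508%. These members moved in different directions, and absence from the window says nothing of the factor. No long stretch of a member mRNA aligned at 90% identity or more to another place in the genome. The search masked low-complexity sequence and could not see short matches.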

How the data were processed

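Oocyte RNA was measured in 12 libraries, 4 for each time point. The authors trimmed the reads with Trim Galore, aligned them to Sscrofa11 with STAR and made the deposited FPKM values with RSEM. Counts were not used here, so depth, counting intervals and floors are not given. Identifiers were named from a gene name table (15029 of 31908). After a filter of 1 FPKM on the mean, log2(FPKM + 1) was fitted in R 4.3.3 by limma 3.58.1 (lmFit, eBayes with trend) on stage alone over all libraries. Tests were two-sided, p-values were adjusted over the 7013 genes by the Benjamini-Hochberg method, and a gene passed at an adjusted p under 0.05 and a fold over 1.5. Fold changes on this scale understate those of low genes. CDT1 was compared by an exact permutation test. The fit was tested on simulated data that held no shift in scaling between libraries, so that test does not bear on the choice of scaling.

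The members and gene lists were chosen with earlier results of these data known. Named were the members, ORC1 to ORC5 and the MCM relatives, up to 3 genes with the largest rise and 3 with the largest fall per list at 46h against 0h, and the gene most correlated with each member. Of the listed pathway and marker genes, 11 had no matching identifier and were not analysed here. Alternatives were the pseudocount (0.1), the filter (none, or 5 FPKM), 4 scalings (median-of-ratios, quantile, TPM, and TPM less the mitochondrially encoded genes), a fit of the 2 stages compared, the replicate number as a block, eBayes without its trend, and each library left out. Sequences came from RefSeq models on Sscrofa11.1, and positions are of that build. Python 3.11.15, pandas 2.3.3, scipy 1.17.1 and matplotlib 3.10.9 were used.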

Additional observations from a re-analysis of the deposited data

Results flagged for a closer look

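Of 30 groups of 4 libraries, 3 held a library whose gap to its nearest neighbour took up most of the range of the group by Dixon's test on log2(FPKM + 1). Among the 29 groups without 3 equal values there were 2, and chance gives about 1 such group in 20. MCM3 at 22h was 5.72 FPKM in replicate 4, with the other libraries at 6.65 to 6.72. MCM6 at 46h was 41.47 FPKM in replicate 2, under the 53.07 to 55.66 of the others, and was past the critical value on the log2 scale but not on FPKM itself. CDT1 at 46h was 0.04 FPKM in replicate 4 and listed at 0 in the others, a case in which any value above 0 is marked, so it does not count as a library apart.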

How the results depend on the processing

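Of 27 changes of members tested, 9 kept their direction and their side of the thresholds under all alternatives run (at most 22 each). All 6 calls between 0h and 46h held when any 1 library was left out, as did both rises of ORC6 and GMNN after 22h. The number of members passing at 22h against 0h ran from 1 to 4 as libraries were left out. It was 1 without replicate 2 of 22h, where 22% of all genes passed. Signs turned for changes that had not passed. MCM7 turned at 22h against 0h without replicate 1 of 0h (-0.04), replicate 2 of 0h (-0.14) or replicate 3 of 22h (-0.14), at 46h against 22h without replicate 2 of 22h (-0.03) or replicate 3 of 46h (-0.08), and at 46h against 0h without replicate 2 of 0h (-0.03) or replicate 3 of 46h (-0.04). MCM2 turned at 46h against 0h with median-of-ratios scaling (0.31), quantile normalization (0.42) and without replicate 4 of 0h (0.25) or of 46h (0.09). Quantile normalization turned MCM3 (0.10) and MCM4 (0.08) at 46h against 22h. As libraries were left out, MCM7 ran up to 0.32, 0.29 and 0.43 in these comparisons, and MCM2 down to -0.36 at 46h against 0h. For CDT1 at 46h against 22h, leaving out libraries gave differences of -0.72 to -0.44, and without any 1 library of 46h the exact permutation p was 0.0571 with no overlap. Quantile normalization brought MCM7 past the thresholds at 46h against 0h (0.70), and it and median-of-ratios scaling did so for MCM6 at 46h against 22h (0.75 and 0.71). The cause of these shifts was not tested. At a mean of at least 5 FPKM, MCM5 was not tested.

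Same-numbered libraries did not deviate together across all stages (3 of 12 pairs with r over 0.1, from -0.47 to 0.38, and 3 of 12 closest to their own number, all of these between 22h and 46h), so the numbers were not taken to pair the samples. With the replicate block 3, 4 and 6 members passed in the 3 comparisons and 1801, 2933 and 3894 of all genes, and no call of a member changed. Depth is unknown, so for CDT1 and MCM5, which lie near or under 1 FPKM, the counting error could not be separated from the spread of the libraries.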
